A study of Homo sapiens with 15 samples.

Results

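The 31 genes described here are p53 pathway target genes, taken as a list of gene symbols. The list was chosen with earlier results of these data known. Gene names were found for the Ensembl identifiers of the count tables, which hold 47634 rows each, and 30 of the 31 genes were among them. DDB2 was not analysed here. Of these 30 genes, 28 had enough reads to be tested together with all 11113 genes that passed the same filter.

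The transcription factor p53 is stabilised when DNA is damaged and binds response elements near its targets. These include CDKN1A, whose product p21 holds the cell cycle, MDM2, whose product marks p53 for degradation and so closes a feedback loop, and genes of apoptosis, DNA repair, antioxidant defence and ribosome function. Platinum drugs such as cisplatin form DNA adducts that block polymerases, and p53 targets are among the genes commonly followed after such damage. Several of them, SESN2 and GDF15 among them, are also known to respond to ATF4, a transcription factor of the stress response to amino acid shortage and unfolded proteins.

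RNA was analyzed from IGROV-CP20 cells, an ovarian cancer line that resists cisplatin. Each of 5 conditions had 3 biological replicates, and all replicates came from the 1 line. Untreated cells received nothing, and a second set received 50 µM cisplatin for 24 h. The other three sets were first kept for 24 h with 1 drug at 10 µM, which was Telmisartan, Tranilast or Amphotericin B, and then received the same 24 h of cisplatin. No set received a drug without cisplatin, so each drug was seen only on top of cisplatin. Tranilast is an anti-allergic drug, Telmisartan blocks the angiotensin II receptor, and Amphotericin B is an antifungal that binds membrane sterols.

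Reads were counted per gene after QuantSeq, which sequences a stretch near the 3′ end of polyadenylated RNA. Total counts ranged from 1510620 to 3517041 per library, and the lowest 3 were those of Amphotericin B plus cisplatin. Levels are given in CPM, a gene's count scaled to a fixed library total, after TMM scaling, which corrects for differences in composition between libraries. The mitochondrial ribosomal RNA share of the counts was 1.79% to 2.20% in untreated cells, 2.10% to 2.53% with Tranilast, and 12.3% to 14.8% with Amphotericin B. It was 13.7%, 5.61% and 3.41% in the 3 cisplatin libraries and 10.8%, 12.9% and 3.61% in the 3 Telmisartan libraries, so that cisplatin library 1 and Telmisartan library 3 stood apart from the others of their condition. These 2 libraries are kept in the values below, and the counts without them are given beside the results. The epithelial markers EPCAM, KRT8 and KRT18 were read in the cells, whereas PAX8, KRT7 and WT1, which mark many ovarian carcinomas, had at most 1 count in any library. Sums of markers are given in CPM without TMM scaling. Of other cells' markers, the endothelial VWF and CDH5 and the T cell gene CD3E were at 0 in all libraries, and 6 fibroblast markers summed to 15.7 to 64.2 CPM. The 5 leukocyte markers, mostly PTPRC, summed to 75.7 to 91.4 CPM in untreated libraries and to 5.11 to 28.7 CPM in those given cisplatin, and their part in the results was not tested. In bulk RNA, fewer cells of a kind and less RNA per cell cannot be told apart.

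The promoter sequences of the genes show where the recognition sequence of p53 lies near their starts. RefSeq windows on GRCh38.p14, from 250 bases before to 50 after each transcription start, were matched for 26 of the 31 genes, in 37 windows. The p53 decamer, the 10-base unit of the response element, was found without mismatch in 8 of these windows and in 6.63% of all 35116 windows. A full element, which is a pair of decamers at most 13 bases apart with at most 2 mismatches over 20 bases and the central C and G of each decamer kept, was in 6 of the 37 windows and in 2.93% of all windows. Both were searched on both strands and overlap each other, since a full element can contain an exact decamer. The stretches below are shown because they carry these matches in genes with values in this data set. They are written 5′ to 3′ on the strand of the gene, with the matched decamer or element in capitals and up to 25 bases on either side. The capitals of FDXR include a spacer of 10 bases between its decamers, which is not part of the match. None reaches past the transcription start of the window it was taken from. FAS, MDM2 and SESN1 also have annotated starts further upstream, and their stretches lie downstream of those.

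Full elements were matched in 4 genes with counts. That of FAS lies at chr10:88991284-88991353 on the plus strand, that of MDM2 at chr12:68808898-68808967 on the plus strand, that of AEN at chr15:88621281-88621339 on the plus strand and that of FDXR at chr17:74872995-74873050 on the minus strand. The element of MDM2 precedes a pair of annotated starts, at which it begins 94 and 101 bases upstream.
FAS: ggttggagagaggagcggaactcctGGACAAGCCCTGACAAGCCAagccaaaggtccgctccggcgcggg
MDM2: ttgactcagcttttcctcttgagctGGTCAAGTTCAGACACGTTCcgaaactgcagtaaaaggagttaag
AEN: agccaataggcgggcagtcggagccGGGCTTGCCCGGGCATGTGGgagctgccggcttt
FDXR: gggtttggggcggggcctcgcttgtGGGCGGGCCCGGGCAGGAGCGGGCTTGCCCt

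A decamer without a full element was matched in SESN1 at chr6:109009003-109009062 on the minus strand, EI24 at chr11:125569442-125569476 on the plus strand and RPS27L at chr15:63157502-63157561 on the minus strand, and also in PLK2, which was too low to test.
SESN1: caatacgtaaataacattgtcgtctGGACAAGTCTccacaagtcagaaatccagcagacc
EI24: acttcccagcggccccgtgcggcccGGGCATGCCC
RPS27L: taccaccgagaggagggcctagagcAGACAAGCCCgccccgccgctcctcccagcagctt

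The search also covered TGATGNAA, the element read by ATF4, which was in 3.62% of all windows and among the 26 genes with a window was found only in PLK3. The core promoter sequence TATAAA was in 11.5% of all windows and, among these genes, in that of GDF15. A match is a description of the letters in the window, and its absence says only that these letters are not there.

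The effect of cisplatin itself is the first comparison. After 24 h of cisplatin, 5 of the 28 genes rose and 6 fell against untreated cells at an adjusted p under 0.05 (quasi-likelihood test of edgeR, adjusted by Benjamini and Hochberg's method over all genes, n = 3 per condition, as in all comparisons below). The genes that rose were TRIAP1, BTG2, AEN, EI24 and PLK3, and those that fell were MDM4, GDF15, SESN2, FAS, ZMAT3 and PHLDA3. The share called was 39.3% of the p53 target genes and 44.7% of all genes tested, so the number called is not particular to these genes. The same holds by direction, since 21.1% of all genes rose and 23.6% fell. Their median log2 fold change was 0.16, against -0.01 over all genes, with a range from -2.36 for GDF15 to 2.34 for BTG2. The libraries did not overlap between the conditions for 16 of the 28 genes, 10 with all cisplatin libraries above and 6 with all below, where 53.6% of all genes did not overlap. Fits without cisplatin library 1 and Telmisartan library 3 called 15 of the 28 genes, 8 higher and 7 lower, where 55.4% of all genes were called.

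The comparison of Tranilast plus cisplatin with cisplatin alone called 10 of the 28 genes. SESN2, GDF15, MDM4, TP53INP1, CDKN1A, FAS and PHLDA3 were higher with Tranilast, and TRIAP1, BTG2 and RPS27L were lower. This was 35.7% of the p53 target genes where 22.2% of all genes were called, 10.5% higher and 11.6% lower. The libraries did not overlap for 14 of the 28 genes, where 40.3% of all genes did not overlap. Without cisplatin library 1 and Telmisartan library 3 the count was 13, with 36.3% of all genes called. The cisplatin libraries serve in both comparisons, so that a cisplatin library that is high or low by itself moves a gene in opposite directions in them.

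Telmisartan plus cisplatin against cisplatin alone called 0 of the 28 genes and 0.00% of all genes in edgeR, with 4 of the 28 at an unadjusted p under 0.05. DESeq2 called 1 of them, TRIAP1, and edgeR's likelihood ratio test called 0. Amphotericin B plus cisplatin against cisplatin alone called 4, all lower and all of the apoptosis group, which were TRIAP1, EI24, TNFRSF10B and AEN. These are 14.3% of the p53 target genes, where 13.2% of all genes were called and 9.01% were lower. Without cisplatin library 1 and Telmisartan library 3, the count was 8 with Telmisartan where 24.9% of all genes were called, and 13 with Amphotericin B where 43.4% were called.

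**Figure D1:**
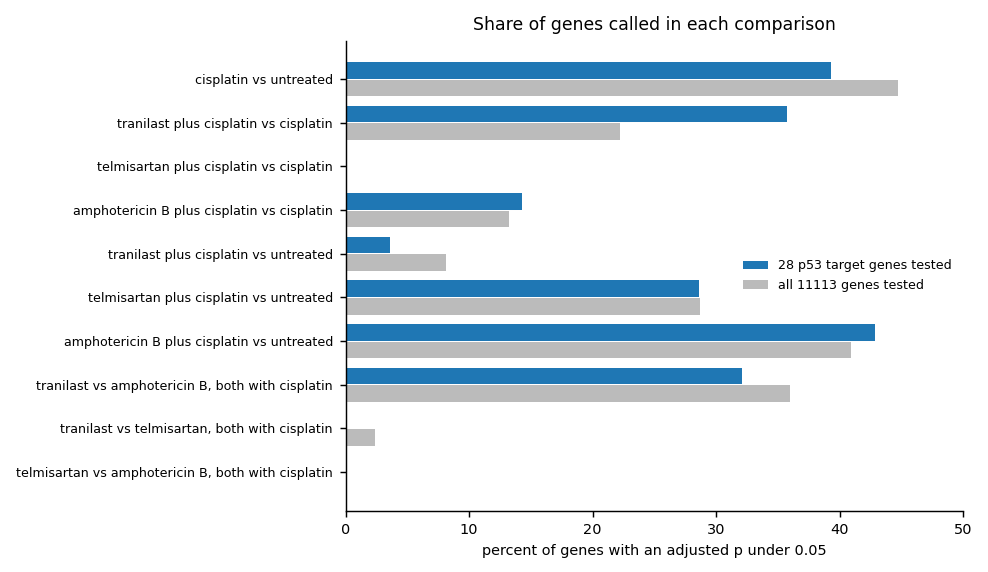
Percent of genes with an adjusted p under 0.05 in each of 10 comparisons (horizontal axis, percent) for the 28 p53 target genes tested (blue bars) and for all 11113 genes tested (grey bars). The blue bar is longer than the grey one for Tranilast plus cisplatin against cisplatin, at 35.7% against 22.2%, and shorter, at 39.3% against 44.7%, for cisplatin against untreated cells.

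Among the regulators that feed back on p53, MDM4 fell with cisplatin and was higher with Tranilast plus cisplatin than with cisplatin alone. Its product binds p53 and keeps it inactive. MDM4 had 150, 148 and 162 CPM in the untreated libraries, 79.1, 69.3 and 81.0 CPM with cisplatin alone, 124, 122 and 127 CPM with Tranilast, 64.0, 63.8 and 98.0 CPM with Telmisartan, and 56.6, 79.6 and 65.1 CPM with Amphotericin B. Every library given cisplatin was below every untreated one, and the 3 Tranilast libraries were the highest of those given cisplatin. The log2 fold change with cisplatin was -1.01 ± 0.19 (SE, adjusted p = 0.000418), and that of Tranilast plus cisplatin against cisplatin was 0.70 ± 0.19 (adjusted p = 0.0139). The latter call was lost without cisplatin library 2 or Tranilast library 3.

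MDM2, which encodes the ubiquitin ligase of p53 and carries a full element in the window shown above, was spread widely with cisplatin. It had 85.6, 82.6 and 90.1 CPM untreated, 28.4, 45.9 and 96.0 CPM with cisplatin alone, 111, 99.8 and 110 CPM with Tranilast, 52.3, 23.6 and 90.6 CPM with Telmisartan, and 24.8, 29.5 and 33.3 CPM with Amphotericin B. The cisplatin and Telmisartan libraries overlapped the untreated ones, whereas the Amphotericin B libraries were all below them and the Tranilast libraries all above them. The log2 fold change with cisplatin was -0.59 ± 0.37 (adjusted p = 0.206), and MDM2 passed the test lower with Amphotericin B plus cisplatin than in untreated cells, at -1.56 ± 0.40 (adjusted p = 0.00542). In the 3 cisplatin libraries MDM2 was lowest where the mitochondrial ribosomal RNA share was highest, and in the Telmisartan libraries likewise. With that share as a covariate the difference between Amphotericin B and untreated cells was 0.27 (adjusted p = 0.636), of opposite sign.

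PPM1D, a phosphatase that switches off p53 and its kinases, and CCNG1, a cyclin that guides a phosphatase to MDM2, passed the test in none of the 10 comparisons. PPM1D had 2 to 54 counts per library and CCNG1 18 to 74.

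In the growth arrest group, CDKN1A was read at low counts, 7 to 73 per library. It encodes p21, the inhibitor of cyclin-dependent kinases. CDKN1A had 3.80, 3.72 and 6.07 CPM untreated, 6.13, 7.81 and 9.88 CPM with cisplatin alone, 18.1, 19.5 and 16.4 CPM with Tranilast, 3.55, 11 and 9.03 CPM with Telmisartan, and 9.91, 14.3 and 5.92 CPM with Amphotericin B. The 3 Tranilast libraries were above all 12 others, and the cisplatin libraries were just above the untreated ones. The log2 fold change was 0.81 ± 0.39 for cisplatin against untreated cells, which did not pass (adjusted p = 0.103), 1.16 ± 0.35 for Tranilast plus cisplatin against cisplatin (adjusted p = 0.0257), and 1.96 ± 0.35 for Tranilast plus cisplatin against untreated cells (adjusted p = 0.00215). The call of Tranilast against cisplatin was lost in 6 of 24 alternatives, which were the mitochondrial ribosomal RNA covariate and the removal of cisplatin library 1, cisplatin library 2 or any 1 Tranilast library.

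BTG2, which slows proliferation and recruits an mRNA deadenylase, was the gene of the 28 with the largest rise after cisplatin. It had 3.17, 2.86 and 2.02 CPM untreated, 8.92, 18.1 and 13.8 CPM with cisplatin alone, 4.81, 4.88 and 5.16 CPM with Tranilast, 9.65, 7.15 and 4.93 CPM with Telmisartan, and 6.37, 3.98 and 11.8 CPM with Amphotericin B. All libraries given cisplatin were above the untreated ones, and the Tranilast libraries were below those of cisplatin alone. Counts were 5 to 37 per library. BTG2 changed by 2.34 ± 0.40 on the log2 scale with cisplatin (adjusted p = 0.000186) and was at -1.45 ± 0.37 for Tranilast plus cisplatin against cisplatin (adjusted p = 0.0104). The latter call was lost with library size only and without cisplatin library 2.

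PLK3, a polo-like kinase of the stress response, rose with cisplatin by a log2 fold change of 0.90 ± 0.31, from a mean of 6.98 ± 2.48 CPM (SD, n = 3) to 12.96 ± 2.74 CPM. The call was lost with library size only, with no filter beyond 1 count and in a fit of the 6 libraries alone. It was also lost without untreated library 2, untreated library 3 or cisplatin library 2. GADD45A, a growth arrest gene with 115 to 403 counts per library, and CCNG2, an unusual cyclin of resting cells, passed in none of the 10 comparisons. PLK2 was read 1 to 14 times per library and was not tested. It had 3.80, 4.003 and 2.78 CPM untreated and 1.67, 3.42 and 3.16 CPM with cisplatin alone.

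**Figure D2:**
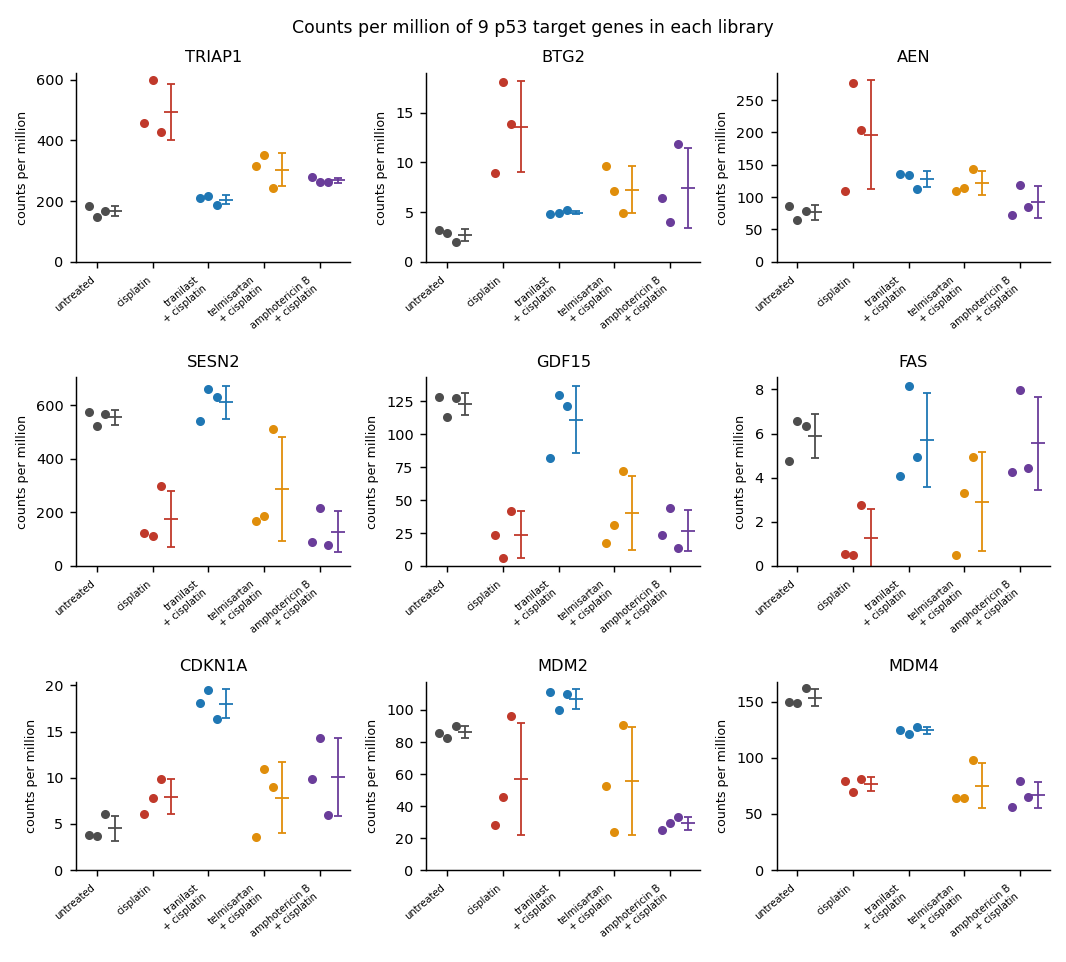
CPM (vertical axes, linear from 0) of 9 p53 target genes in each of the 15 libraries, with the mean and SD of the 3 libraries of a condition beside them. The Tranilast libraries of SESN2, GDF15 and MDM4 lie near the untreated ones, those of CDKN1A are the highest of all at 16.4 to 19.5, and MDM2 ranges from 28.4 to 96.0 among the cisplatin libraries.

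In the apoptosis group, TRIAP1, EI24 and AEN rose and FAS and PHLDA3 fell with cisplatin. TRIAP1, a small protein of the mitochondrial intermembrane space that counters apoptosis, had the smallest adjusted p of the 28 genes in each of the 4 comparisons above. It had 183, 149 and 168 CPM untreated, 456, 599 and 427 CPM with cisplatin alone, 209, 218 and 188 CPM with Tranilast, 316, 351 and 245 CPM with Telmisartan, and 279, 264 and 263 CPM with Amphotericin B. The order of the conditions did not overlap at its ends, since every cisplatin library was above all others and every untreated library below all others. The log2 fold change was 1.57 ± 0.18 with cisplatin (adjusted p = 9.69e-06), -1.27 ± 0.18 for Tranilast against cisplatin (adjusted p = 0.00114), -0.70 ± 0.18 for Telmisartan against cisplatin (adjusted p = 0.293) and -0.88 ± 0.18 for Amphotericin B against cisplatin (adjusted p = 0.00729).

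AEN encodes a nuclease that takes part in apoptotic DNA breakdown. It had 86.2, 64.3 and 77.9 CPM untreated, 109, 277 and 203 CPM with cisplatin alone, 136, 134 and 113 CPM with Tranilast, 110, 114 and 143 CPM with Telmisartan, and 72.2, 119 and 84.4 CPM with Amphotericin B. All cisplatin libraries were above the untreated ones, and cisplatin library 1 was no higher than those of Tranilast or Telmisartan. AEN rose by a log2 fold change of 1.37 ± 0.27 with cisplatin (adjusted p = 0.000591), and was at -1.10 ± 0.27 for Amphotericin B plus cisplatin against cisplatin (adjusted p = 0.0158). The difference for Tranilast against cisplatin, -0.63 ± 0.26, did not pass (adjusted p = 0.0896).

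EI24, a membrane protein of the endoplasmic reticulum with a role in autophagy, had 249, 252 and 261 CPM untreated, 378, 519.5 and 520.1 CPM with cisplatin alone, 362, 356 and 334 CPM with Tranilast, 346, 401 and 414 CPM with Telmisartan, and 304, 254 and 245 CPM with Amphotericin B. The cisplatin libraries were above the untreated and the Amphotericin B libraries, and these last 2 conditions overlapped. EI24 changed by 0.89 ± 0.17 on the log2 scale with cisplatin (adjusted p = 0.000512) and was at -0.82 ± 0.17 for Amphotericin B against cisplatin (adjusted p = 0.00769).

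TNFRSF10B encodes a death receptor for the ligand TRAIL. Its levels were 83.0, 79.2 and 92.9 CPM untreated, 34.6, 90.7 and 107 CPM with cisplatin alone, 87.0, 77.5 and 86.2 CPM with Tranilast, 42.7, 41.2 and 82.1 CPM with Telmisartan, and 13.5, 40.6 and 19.98 CPM with Amphotericin B. Amphotericin B libraries were below all untreated ones, and cisplatin library 1 overlapped them. The log2 fold change of -1.67 ± 0.40 against cisplatin passed (adjusted p = 0.0135), while the change with cisplatin alone was -0.13 ± 0.35 (adjusted p = 0.79). Exons of TNFRSF10B overlap those of RHOBTB2 on the other strand, which had a median of 15 counts, where TNFRSF10B had 235.

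FAS, the receptor of Fas ligand, was read 1 to 30 times per library. It had 4.75, 6.58 and 6.33 CPM untreated, 0.557, 0.488 and 2.77 CPM with cisplatin alone, 4.07, 8.13 and 4.94 CPM with Tranilast, 0.508, 3.30 and 4.93 CPM with Telmisartan, and 4.25, 7.96 and 4.44 CPM with Amphotericin B. Cisplatin libraries were below all untreated, Tranilast and Amphotericin B libraries. FAS changed by -2.06 ± 0.63 on the log2 scale with cisplatin (adjusted p = 0.0134) and was at 2.02 ± 0.63 for Tranilast against cisplatin (adjusted p = 0.0289). Exons of FAS overlap those of ACTA2 on the other strand, which had a median of 48 counts, more than FAS, and the sources used here do not say whether reads were counted by strand. ACTA2 itself did not pass in either comparison, with log2 fold changes of -0.10 and -1.23.

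TP53INP1, which promotes autophagy and cell death, had 12.99, 15.4 and 14.2 CPM untreated, 6.13, 9.76 and 13.04 CPM with cisplatin alone, 25.9, 27.7 and 27.6 CPM with Tranilast, 12.2, 7.15 and 27.1 CPM with Telmisartan, and 3.54, 15.9 and 8.14 CPM with Amphotericin B. Tranilast libraries were above all untreated, cisplatin and Amphotericin B libraries, and Telmisartan library 3 reached their level. Its log2 fold change for Tranilast against cisplatin was 1.46 ± 0.41 (adjusted p = 0.0184).

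PHLDA3, which restrains the kinase AKT, fell with cisplatin by 1.27 on the log2 scale (SE 0.49), from 16.2 ± 3.97 CPM to 6.54 ± 3.24 CPM, and was higher with Tranilast plus cisplatin than with cisplatin alone at 1.499 ± 0.49. PERP, a desmosomal membrane protein, had 9 to 51 counts per library and passed in no comparison.

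Calls in the apoptosis group depended on single libraries for some genes. Without cisplatin library 2 the 4 calls of Amphotericin B against cisplatin were all lost and 0 of the 29 p53 target genes then tested passed, where 1.83% of all genes did, and a fit of the 6 libraries of that comparison alone also called 0, where 0.967% of all genes passed. For Tranilast against cisplatin, the calls of FAS, TP53INP1 and PHLDA3 were each lost without cisplatin library 2, Tranilast library 2 or Tranilast library 3 and with the mitochondrial ribosomal RNA covariate, those of FAS and PHLDA3 also without cisplatin library 1, and that of PHLDA3 also without Tranilast library 1. The fall of FAS with cisplatin was not called without cisplatin library 2. The call of PHLDA3 after cisplatin was lost under 10 of 24 alternatives, among them DESeq2 and the removal of cisplatin library 1, cisplatin library 2, untreated library 1 or untreated library 3.

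**Figure D3:**
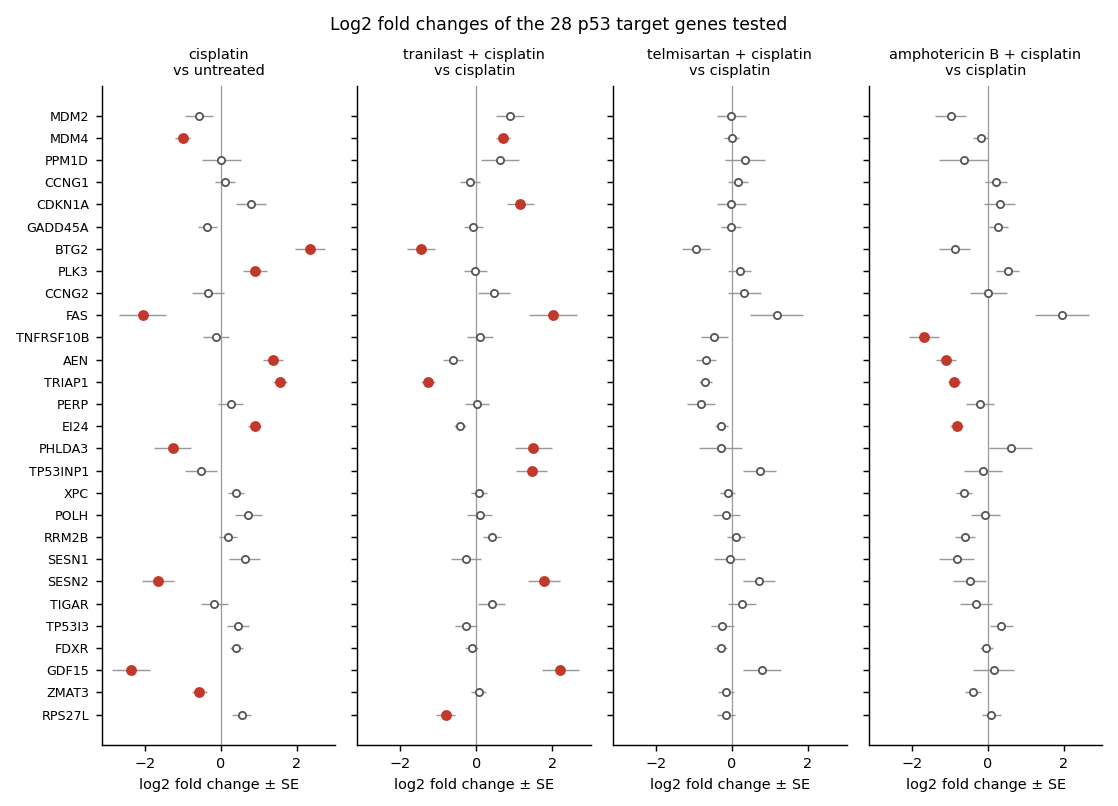
Log2 fold change with its SE (horizontal axes, log2 units) of the 28 p53 target genes tested, in 4 comparisons. Filled red circles have an adjusted p under 0.05 and open circles do not. GDF15 lies at -2.36 in the first panel and at 2.21 in the second, BTG2 at 2.34 and -1.45, and the third panel holds no filled circle.

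Among genes of DNA repair and nucleotide supply, none of the 3 tested passed for cisplatin against untreated cells or for a drug plus cisplatin against cisplatin. XPC, which recognises bulky DNA damage for excision repair, had 64.3, 58.0 and 66.8 CPM untreated, 57.4, 93.7 and 99.2 CPM with cisplatin alone, 94.8, 86.5 and 81.7 CPM with Tranilast, 72.1, 63.8 and 94.2 CPM with Telmisartan, and 56.6, 49.4 and 55.5 CPM with Amphotericin B. Cisplatin library 1 was as low as the Amphotericin B libraries, and the other cisplatin libraries were as high as those of Tranilast. XPC overlaps LSM3 on the other strand, which had a median of 213 counts, and its reads are uncertain for that reason. RRM2B, a subunit of ribonucleotide reductase that supplies nucleotides for repair, and XPC were higher with Tranilast plus cisplatin than with Amphotericin B plus cisplatin, at 1.01 ± 0.25 and 0.70 ± 0.21. POLH, a polymerase that copies past DNA lesions, overlaps GTPBP2, had 8 to 34 counts per library and passed in none.

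In the redox, metabolism and secreted group, GDF15 and SESN2 fell with cisplatin. GDF15, a cytokine secreted by stressed cells, had 128, 113 and 128 CPM untreated, 23.4, 5.85 and 41.5 CPM with cisplatin alone, 82.2, 130 and 122 CPM with Tranilast, 17.8, 31.3 and 71.7 CPM with Telmisartan, and 23.4, 43.8 and 13.3 CPM with Amphotericin B. Cisplatin, Telmisartan and Amphotericin B libraries were all below the untreated ones, and the Tranilast libraries overlapped the untreated ones. GDF15 changed by -2.36 ± 0.50 on the log2 scale with cisplatin (adjusted p = 0.00117) and was at 2.21 ± 0.50 for Tranilast against cisplatin (adjusted p = 0.00603).

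SESN2, a sestrin that senses leucine and restrains the kinase mTORC1, had 573, 523 and 565 CPM untreated, 123, 110.2 and 297 CPM with cisplatin alone, 541, 658.5 and 632 CPM with Tranilast, 168, 185 and 509 CPM with Telmisartan, and 87.8, 215 and 79.9 CPM with Amphotericin B. The cisplatin and Amphotericin B libraries were below the untreated ones, the Tranilast libraries overlapped these, and Telmisartan library 3 was close to them. SESN2 changed by -1.65 ± 0.43 on the log2 scale with cisplatin (adjusted p = 0.00506) and was at 1.79 ± 0.43 for Tranilast against cisplatin (adjusted p = 0.00818). The relative SESN1, which carries the decamer shown above, had 6 to 74 counts per library and passed in no comparison.

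TP53I3, a quinone oxidoreductase, passed only as higher with Amphotericin B plus cisplatin than in untreated cells, at 0.80 ± 0.30. That call was lost under 11 of 24 alternatives, among them the removal of each untreated library. Exons of TP53I3 overlap those of FAM228B on the other strand, which had a median of 11 counts, where TP53I3 had 36. TIGAR, a phosphatase that lowers glycolysis, and FDXR, the mitochondrial ferredoxin reductase, passed in none. FDXR had a mean of 91.5 ± 8.51 CPM untreated and 121 ± 25.3 CPM with cisplatin, with all cisplatin libraries above (adjusted p = 0.064). SPATA18, a gene of mitochondrial quality control, was listed at 0 in 13 of 15 libraries and at 1 count in the other two.

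ZMAT3, a zinc finger protein that binds RNA and alters splicing, fell with cisplatin by 0.56 on the log2 scale (SE 0.20), from 137 ± 10.7 CPM to 92.3 ± 21.1 CPM. The call was lost in a fit of the 6 libraries alone and without untreated library 2, untreated library 3 or cisplatin library 1.

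RPS27L, a copy of the ribosomal protein gene RPS27, had 735, 720 and 793 CPM untreated, 1567, 909 and 823 CPM with cisplatin alone, 584, 704 and 593 CPM with Tranilast, 1101, 1172 and 683 CPM with Telmisartan, and 1339, 1169 and 998 CPM with Amphotericin B. The Tranilast libraries were all below the untreated ones, and the high values sat in the libraries with a high mitochondrial ribosomal RNA share. RPS27L was lower with Tranilast plus cisplatin than with cisplatin alone at -0.81 ± 0.25, a call lost in 7 of 24 alternatives, among them the covariate of that share and the removal of cisplatin library 1. RPS27 moved alike, at 1.39 ± 0.33 for cisplatin against untreated cells and -1.38 ± 0.33 for Tranilast against cisplatin, and how reads shared by the 2 genes were assigned is not given in the sources used here.

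**Figure D4:**
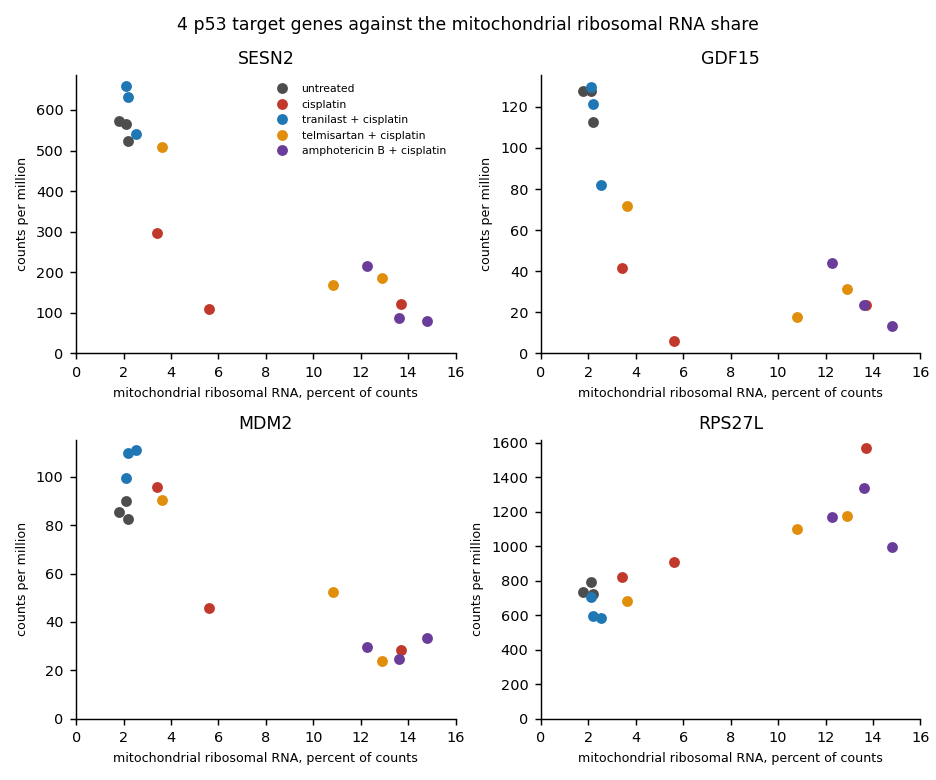
CPM (vertical axes) of SESN2, GDF15, MDM2 and RPS27L against the percent of counts from mitochondrial ribosomal RNA (horizontal axes), 1 point per library, coloured by condition. The untreated and Tranilast libraries sit at 1.79% to 2.53% and the Amphotericin B libraries at 12.3% to 14.8%, and SESN2, GDF15 and MDM2 are lower and RPS27L higher at the right of the panels.

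The mitochondrial ribosomal RNA share moved with the conditions. With this share as a covariate, an alternative added after the values were seen, cisplatin against untreated cells called 13 of the 28 genes, 9 higher and 4 lower, where 48.6% of all genes were called. Of the 11 called before, 8 were among them, and FAS, PHLDA3 and ZMAT3 were not. For Tranilast against cisplatin the fit called 8, where 26.2% of all genes were called, and of these TRIAP1, BTG2, MDM4, SESN2 and GDF15 had been called before. For Amphotericin B the share and the condition cannot be told apart, since all 3 libraries had a high share.

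Each combination was also set against untreated cells, with the same untreated libraries in every case. Tranilast plus cisplatin differed from untreated cells in 1 of the 28 genes, CDKN1A, where 8.10% of all genes were called. Telmisartan plus cisplatin differed in 8, with TRIAP1, PLK3, EI24 and BTG2 higher and MDM4, ZMAT3, GDF15 and PHLDA3 lower, where 28.7% of all genes were called. Amphotericin B plus cisplatin differed in 12, 6 higher and 6 lower, where 40.9% of all genes were called and the median of all genes was shifted by -0.19 on the log2 scale. The 6 lower genes were MDM4, SESN2, TNFRSF10B, ZMAT3, GDF15 and MDM2, and the 6 higher ones PLK3, TRIAP1, BTG2, CDKN1A, TP53I3 and RPS27L. The shares of p53 target genes called were 3.57%, 28.6% and 42.9%, at or near those of all genes in the last 2 cases.

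The number called for Tranilast plus cisplatin against untreated cells changed with the libraries fitted. A fit of its 6 libraries alone called 16 of the 28 genes, 12 higher and 4 lower, where 36.4% of all genes were called. In that fit CDKN1A was higher by 1.98, TP53INP1 by 0.96, BTG2 by 0.93, PLK3 by 0.91, POLH by 0.81 and AEN by 0.77 on the log2 scale, and the other 6 higher genes by 0.30 to 0.63. The lower ones were MDM4, GADD45A, ZMAT3 and RPS27L, at -0.28, -0.40, -0.48 and -0.23. The 15-library fit without cisplatin library 1 and Telmisartan library 3 called 9, 7 higher and 2 lower, where 23.4% of all genes were called. The libraries of Tranilast plus cisplatin did not overlap the untreated ones for 16 of the 28 genes, 12 above and 4 below, where 46.1% of all genes did not overlap. CDKN1A was called in every one of the 24 alternatives.

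The drugs were also compared with each other. Tranilast plus cisplatin and Amphotericin B plus cisplatin differed in 9 of the 28 genes, where 36.0% of all genes were called. SESN2, MDM2, MDM4, TNFRSF10B, RRM2B, GDF15, TP53INP1 and XPC were higher with Tranilast and RPS27L was lower. The largest of these differences were 2.26 ± 0.44 for SESN2, 2.06 ± 0.51 for GDF15 and 1.87 ± 0.40 for MDM2 on the log2 scale, and the median of all genes was shifted by 0.15. With the mitochondrial ribosomal RNA share as a covariate, 0 of the 28 genes and 0.774% of all genes were called in this comparison. Tranilast and Telmisartan, both with cisplatin, differed in 0 of the 28 genes, where 2.34% of all genes were called, with 9 of the 28 at an unadjusted p under 0.05 in edgeR and 3 called by DESeq2, which were MDM4, TRIAP1 and RPS27L. Without Telmisartan library 3 this comparison called 10 of 29, where 24.4% of all genes were called. Telmisartan and Amphotericin B, both with cisplatin, differed in 0, where 0.00% of all genes were called, with 6 of the 28 at an unadjusted p under 0.05 in edgeR and 1, EI24, called by DESeq2.

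Other genes were counted in 4 further lists, 3 of the p53 pathway and 1 of ATF4. All were chosen with earlier results of these data known. Of all genes tested, 44.7% were called for cisplatin against untreated cells, 21.1% higher and 23.6% lower. Against cisplatin alone, 22.2% of all genes were called with Tranilast, 13.2% with Amphotericin B and 0.00% with Telmisartan. Of 23 regulators upstream of p53, 3 rose and 9 fell with cisplatin, with a median log2 fold change of -0.31 against -0.01 over all genes. CREBBP, an acetyltransferase that modifies p53, changed by -1.65 ± 0.22, USP7, which removes ubiquitin from MDM2 and p53, by -1.01 ± 0.18, and COP1, another ubiquitin ligase of p53, by -1.71 ± 0.34. With Tranilast against cisplatin, 5 of the regulators were higher and 3 lower, CREBBP at 1.37 ± 0.22 among the former. With Amphotericin B 1 was higher and 2 lower, and with Telmisartan 0 passed.

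Of 43 further reported targets of p53, 33 were tested, and 9 rose and 7 fell with cisplatin. IER5, an immediate early gene, rose by 2.17 ± 0.18 on the log2 scale, and PIDD1, a death domain protein, by 2.06 ± 0.24. With Tranilast against cisplatin 4 were higher and 4 lower, with IER5 at -1.57 ± 0.18 and PMAIP1, the apoptosis gene of NOXA, at -0.96 ± 0.19. With Amphotericin B 6 were lower and 0 higher, with PMAIP1 at -1.09 ± 0.21 and IER5 at -0.71 ± 0.18. With Telmisartan 0 passed, and the medians of this list lay between -0.31 and -0.01 in the 4 comparisons.

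Of 26 cell cycle genes that p21 represses through the DREAM complex, 5 rose and 7 fell with cisplatin, and the median was -0.09. MYBL2, a transcription factor of the cycle, rose by 0.96 ± 0.16, CDC25A, a phosphatase that starts S phase, by 2.05 ± 0.39, and CDC25C, which starts mitosis, changed by -1.08 ± 0.24. With Tranilast 1 was higher and 1 lower than with cisplatin alone, with Amphotericin B 2 were higher and 3 lower, and with Telmisartan 0 passed.

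Of 16 genes of the ATF4 list, which are ATF4 itself and 15 of its stress targets, 13 fell and 0 rose with cisplatin, ATF4 among the former, and their median log2 fold change was -1.31. PSAT1 and PHGDH, enzymes of serine synthesis, changed by -1.47 ± 0.20 and -1.01 ± 0.18, and DDIT3, a transcription factor of the unfolded protein response, by -1.77 ± 0.27. With Tranilast against cisplatin 11 were higher and 0 lower, with a median of 1.001, DDIT3 at 1.54 ± 0.27 and CHAC1, which degrades glutathione, at 2.31 ± 0.47. With Amphotericin B 2 were higher and 0 lower, DDIT3 at 0.96 ± 0.28 and PPP1R15A at 0.62 ± 0.17, and with Telmisartan 0 passed. For Tranilast plus cisplatin against untreated cells 0 of the 16 passed in edgeR, with a median of -0.02, where 8.10% of all genes were called. SESN2 and GDF15 moved in the directions of this list with cisplatin and with Tranilast against cisplatin, and so did MDM4, FAS and PHLDA3. A link of these genes to ATF4 was not tested.

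The span of a gene from its start to its end was described beside its change, with spans taken from GENCODE 29. After cisplatin the 5 p53 target genes that rose had a median span of 5.77 kb, the 6 that fell 24.1 kb and those not called 33.6 kb. Spearman's rho between span and log2 fold change was -0.31 across the 28 genes and -0.60 across 10964 genes with a span. For Tranilast against cisplatin, which shares the cisplatin libraries, it was 0.31 across the 28 genes and 0.54 across all, with a median span of 4.11 kb for the 3 lower and 23.0 kb for the 7 higher genes. These are correlations across genes of the same libraries, which are not independent replicates. TRIAP1 and BTG2, at 2.45 and 4.11 kb, were short and rose with cisplatin, whereas PHLDA3 fell at 4.86 kb and GADD45A, at 3.28 kb, did not pass. For Telmisartan and Amphotericin B against cisplatin, rho across the 28 genes was 0.33 and -0.34, where all genes gave 0.39 and 0.18.

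**Figure D5:**
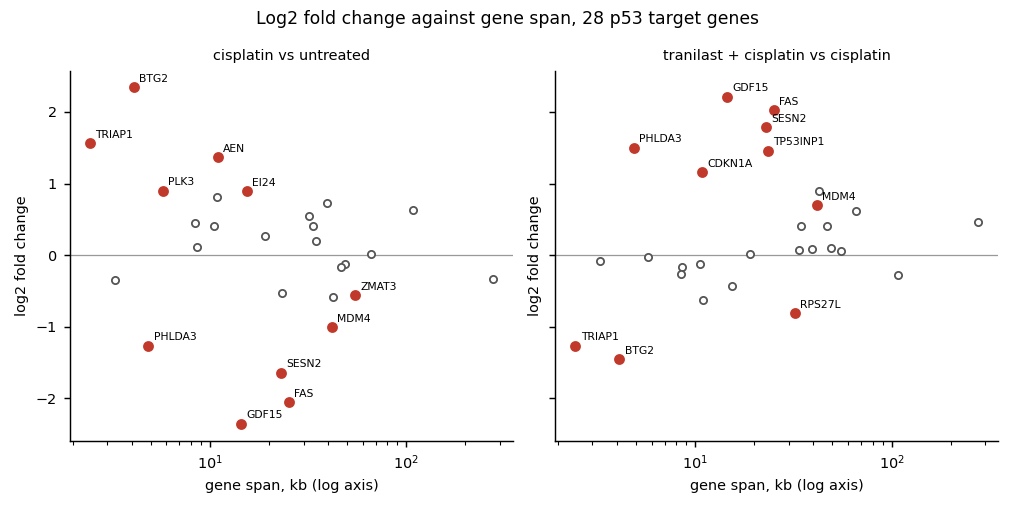
Log2 fold change (vertical axes, log2 units) of the 28 p53 target genes tested against gene span in kb (horizontal log axes), for cisplatin against untreated cells and for Tranilast plus cisplatin against cisplatin. Filled red circles, with names, have an adjusted p under 0.05. TRIAP1 and BTG2 lie at the left, above 0 in the first panel and below 0 in the second.

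Across the 10 comparisons, 19 of the 28 genes passed at least once, where 68.0% of all genes did. The 9 that passed in none were PPM1D, CCNG1, GADD45A, CCNG2, PERP, POLH, SESN1, TIGAR and FDXR. Of the 7 tested genes with a match of p53 in the windows shown, AEN and EI24 rose and FAS fell with cisplatin. MDM2, FDXR, SESN1 and RPS27L did not pass. In that comparison 44.7% of all genes were called, so the number called is not particular to genes with a match.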

How the data were processed

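IGROV-CP20 cells were measured by QuantSeq on a NextSeq500 with 75 bp single reads from 100 ng of RNA. The authors aligned and counted reads with STAR 2.3.0 and HTSeq on hg19, per the submitters' processing notes, and deposited a table per library with raw counts per Ensembl gene, not normalized. The annotation release and the use of the strand are not given in the sources used here. Names came from a current table (45455 rows) and GENCODE 29 (321 rows), and 1858 rows had none.

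The genes and all lists were chosen with earlier results of these data known. Genes were kept by filterByExpr, and a quasi-likelihood model with TMM scaling was fitted over all 15 libraries with edgeR 4.0.16 (limma 3.58.1, R 4.3.3). Conditions therefore share 1 estimate of the spread. The SE of a log2 fold change was derived from its test, as the absolute fold change over the square root of the F statistic. It is therefore approximate and not a separate estimate. The threshold was an adjusted p of 0.05 within each of 10 comparisons. Genes named with full values are the 6 with the smallest adjusted p in each of the 4 main comparisons, and those of other lists are up to 3 with the smallest adjusted p. Other genes were named after their values were seen. Some genes that this rule would name are not reported here. The alternatives were RLE factors, library size only, no filter beyond 1 count, the likelihood ratio test, DESeq2 1.42.0, the 6 libraries of a comparison alone, the replicate number as a block and each library left out. Those with the mitochondrial ribosomal RNA share as a covariate, and without cisplatin library 1 and Telmisartan library 3, were added after the values were seen. The procedure was tested on simulated data. Spans and overlaps of genes came from GENCODE 29, and promoters from RefSeq on GRCh38.p14. Plots used matplotlib 3.10.9. A floor of 3 counts is 0.853 to 1.99 CPM without TMM scaling. Count ranges per library run from the lowest to the highest raw count over all 15 libraries and 5 conditions, and are not a measure of error.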

Additional observations from a re-analysis of the deposited data

How the results depend on the processing

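Of the 28 genes tested, 10 were called for Tranilast plus cisplatin against cisplatin and 11 for cisplatin against untreated cells, and both counts stayed within 1.5 times under RLE factors, library size only, no filter, the likelihood ratio test, DESeq2, the block and the fit of 6 libraries. The calls of MDM4, BTG2, AEN, TRIAP1, SESN2 and GDF15 after cisplatin, of TRIAP1, SESN2 and GDF15 for Tranilast against cisplatin, and of CDKN1A for Tranilast plus cisplatin against untreated cells held in all 24 alternatives. The counts of genes called in this section are given without the share of all genes called in the same fit. Where the Results give that share, it also changed between fits. These counts alone therefore do not show anything particular to the p53 target genes. Leaving out 1 library at a time gave 8 to 13 genes for cisplatin against untreated cells. The range was 4 to 12 for Tranilast against cisplatin, with 4 without cisplatin library 2, 5 without Tranilast library 2 and 4 without Tranilast library 3. It was 0 to 2 for Telmisartan against cisplatin (2 without cisplatin library 1), and 0 to 8 for Amphotericin B against cisplatin (8 without cisplatin library 1, 7 without Telmisartan library 3, 2 without Amphotericin B library 1 or 3, and 0 without cisplatin library 2). Against untreated cells it was 1 to 5 with Tranilast (5 without cisplatin library 1, 2 without Telmisartan library 3), 3 to 13 with Telmisartan (3 without untreated library 3, 5 without Telmisartan library 1, 13 without Telmisartan library 3) and 9 to 13 with Amphotericin B. It was 8 to 10 for Tranilast against Amphotericin B, 0 to 10 for Tranilast against Telmisartan (10 without Telmisartan library 3, 6 without cisplatin library 1, 2 without cisplatin library 3) and 0 to 2 for Telmisartan against Amphotericin B (2 without cisplatin library 1).

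Without both cisplatin library 1 and Telmisartan library 3, the counts were 8 for Telmisartan and 13 for Amphotericin B against cisplatin, 9 for Tranilast and 14 for Telmisartan against untreated cells, 17 for Tranilast against Amphotericin B, 11 for Tranilast against Telmisartan and 1 for Telmisartan against Amphotericin B, and GADD45A was 0.59 for Telmisartan against cisplatin, of opposite sign. The cause was not tested. With the mitochondrial ribosomal RNA share as a covariate the counts were 2 for Telmisartan against cisplatin, 9 for Tranilast and 3 for Amphotericin B against untreated cells, and 0 for Tranilast against Amphotericin B. The sign then turned for TNFRSF10B after cisplatin (0.51), for MDM2 (0.27) and RPS27L (-0.33) with Amphotericin B against untreated cells, and for TP53INP1 (-0.22), XPC (-0.051) and RPS27L (0.0505) for Tranilast against Amphotericin B. The fit of 6 libraries gave 0 for Amphotericin B against cisplatin and 16 for Tranilast against untreated cells, from fewer samples. With library size only, 16 were called for Tranilast against Amphotericin B, all higher, and FDXR was 0.56, of opposite sign, where the median of all genes was at 0.81. Without the filter the counts were 3 for Tranilast against untreated cells, 6 for Tranilast against Telmisartan and 3 for Telmisartan against Amphotericin B. With the likelihood ratio test they were 2 and 5 for the first pair of these, and with DESeq2 2, 3 and 1 for all of them and 1 for Telmisartan against cisplatin.

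With the replicate number as a block, Tranilast against Telmisartan called 2 genes, MDM4 and PHLDA3, and no other count moved by over 1.5 times. Libraries with the same number had a mean correlation of 0.02 in their deviations from the condition means, over 0.1 in 3 of 30 pairs. The highest was 0.63, between cisplatin library 3 and Telmisartan library 3. Libraries with different numbers had a mean of -0.01, over 0.1 in 10 of 60 pairs, and reached 0.48. The mean over all pairs thus showed no pairing by number, and it cannot tell whether particular conditions were paired. Counts were few for FAS, BTG2, CDKN1A and PPM1D, which widens their counting error.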
